A study of Mus musculus with 12 samples.

Results

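The genes of the proteasome were followed in mouse liver RNA across 3 groups of mice. Members are the protein-coding genes whose symbols begin with Psm, one of the letters a to g and a number, and 49 of 25164 listed genes met this rule. In the HFD plus fenofibrate group, 10 weeks of high-fat diet were followed by 4 weeks of the same diet with fenofibrate gavage, 14 weeks of diet in all. The HFD group received high-fat diet throughout the 14 weeks, and the Control group normal diet over the same time. Fenofibrate, used to lower blood lipids, is an agonist of PPARA, a nuclear receptor of hepatocytes. The labels name no strain, sex or age, and do not say whether HFD or Control mice received a mock gavage. Of 10 mice assigned to each group, 4 libraries per group were analysed. Nothing says that cages, dissection days or runs differed, so the p-values reflect only how these libraries spread. In whole liver, fewer cells of a type and less RNA per cell cannot be told apart.

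The proteasome is the protease that degrades proteins tagged with ubiquitin. Its 20S core is a barrel of outer alpha rings and inner beta rings, and the beta rings hold the catalytic sites. A 19S particle caps the barrel, with a ring of ATPases that unfolds the substrate and non-ATPase subunits that recognise and remove ubiquitin. In immune cells, and in other cells under interferon, the catalytic subunits Psmb5, Psmb6 and Psmb7 are replaced by the immunoproteasome subunits Psmb8, Psmb9 and Psmb10, which favour peptides for MHC class I. The transcription factor NFE2L1 raises standard subunit genes together when proteasome activity is short.

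By role, the 49 members are 7 genes of the 20S alpha ring, 4 structural and 3 standard catalytic genes of the beta ring, 3 immunoproteasome genes, 6 ATPases and 11 non-ATPases of the 19S particle, 3 chaperones of 19S assembly, 4 chaperones of 20S assembly, 5 activator genes, and single genes for the inhibitor Psmf1 and the testis alpha subunit Psma8. Psmc3ip matches by its symbol but is a meiotic recombination cofactor, not a subunit. All 49 members passed the filter on low counts, which kept 13477 genes with 99.87% of the counts. Levels are CPM, read counts relative to the TMM-scaled library size. Log2 fold changes are given ± SE. A gene is said to rise or fall when its adjusted p is under 0.05 in the quasi-likelihood test of edgeR, adjusted after Benjamini and Hochberg over all genes tested.

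Total counts ran from 15797016 to 18514481 per library, and the members took 0.269% to 0.327% of them. The 10 hepatocyte markers, albumin among them, were all detected and summed to 102502 to 136130 CPM with fenofibrate, 122329 to 150908 CPM in HFD and 134073 to 164645 CPM in Control. Some libraries stood apart. Summed over 12 pancreatic acinar markers, fenofibrate library 1 held 1843 CPM, while its group otherwise held 7.79 to 14.0 CPM. Fenofibrate libraries 1 and 3 held 156 and 115 CPM of 6 striated muscle markers, and no other library had more than 1.15 CPM. Control library 3 held 17.7 CPM of 12 T and NK cell markers, against 5.58 to 7.05 CPM in the other Control libraries. Without fenofibrate libraries 1 and 3, 124 of all genes tested passed for fenofibrate against HFD, where 1816 did with all libraries, and 373 passed for fenofibrate against Control, where 1236 did.

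Averaged over the 12 libraries, each standard catalytic subunit had a higher level per kilobase than the immunoproteasome gene that replaces it. Per kilobase of transcript, the standard catalytic genes had 115 CPM per kb for Psmb6, 47.9 for Psmb7 and 27.6 for Psmb5. The immunoproteasome genes had 18.1 CPM per kb for Psmb10, 8.44 for Psmb9 and 3.86 for Psmb8. Among alpha ring genes the level per kb was lowest for Psma2, at 24.5 CPM per kb, and highest for Psma7, at 115 CPM per kb. Among the 19S ATPases it ran from 34.8 CPM per kb for Psmc6 to 75.1 CPM per kb for Psmc1. These figures use the length of 1 annotated transcript per gene. Divided by all exon bases of the gene instead, Psmb6, Psmb5 and Psmb7 had 48.9, 27.6 and 16.2 CPM per kb, and Psmb10, Psmb9 and Psmb8 had 13.9, 3.12 and 1.86. The orders within a role depend on the length used. By exon bases Psmb5 stood above Psmb7, the highest alpha ring gene was Psma6, at 59.1 CPM per kb, with Psma7 at 34.2, and the lowest ATPase was Psmc2, at 14.4 CPM per kb, with Psmc6 at 22.3. Psma2 remained the lowest alpha ring gene and Psmc1 the highest ATPase. Psma8 averaged 0.643 CPM and Psmc3ip 0.468 CPM, the lowest levels of the 49.

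The first comparison asks what fenofibrate did on a continued high-fat diet. Few members changed. Psma1, Psma3 and Psma4, all of the alpha ring, and Psmc6, an ATPase of the 19S base, fell, and the inhibitor gene Psmf1 rose. Of the 49 members 4 fell, while 6.59% of all genes tested fell, and 1 rose, while 6.89% of all genes tested rose. At an unadjusted p under 0.05, 17 of the 49 members were lower with fenofibrate, a larger share than the 15.5% of all genes tested. At the same cut 3 were higher, a smaller share than the 15.8% of all genes tested. This skew was not tested. The 4 that fell were a share close to the background, and they sat near the threshold.

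**Figure D1:**
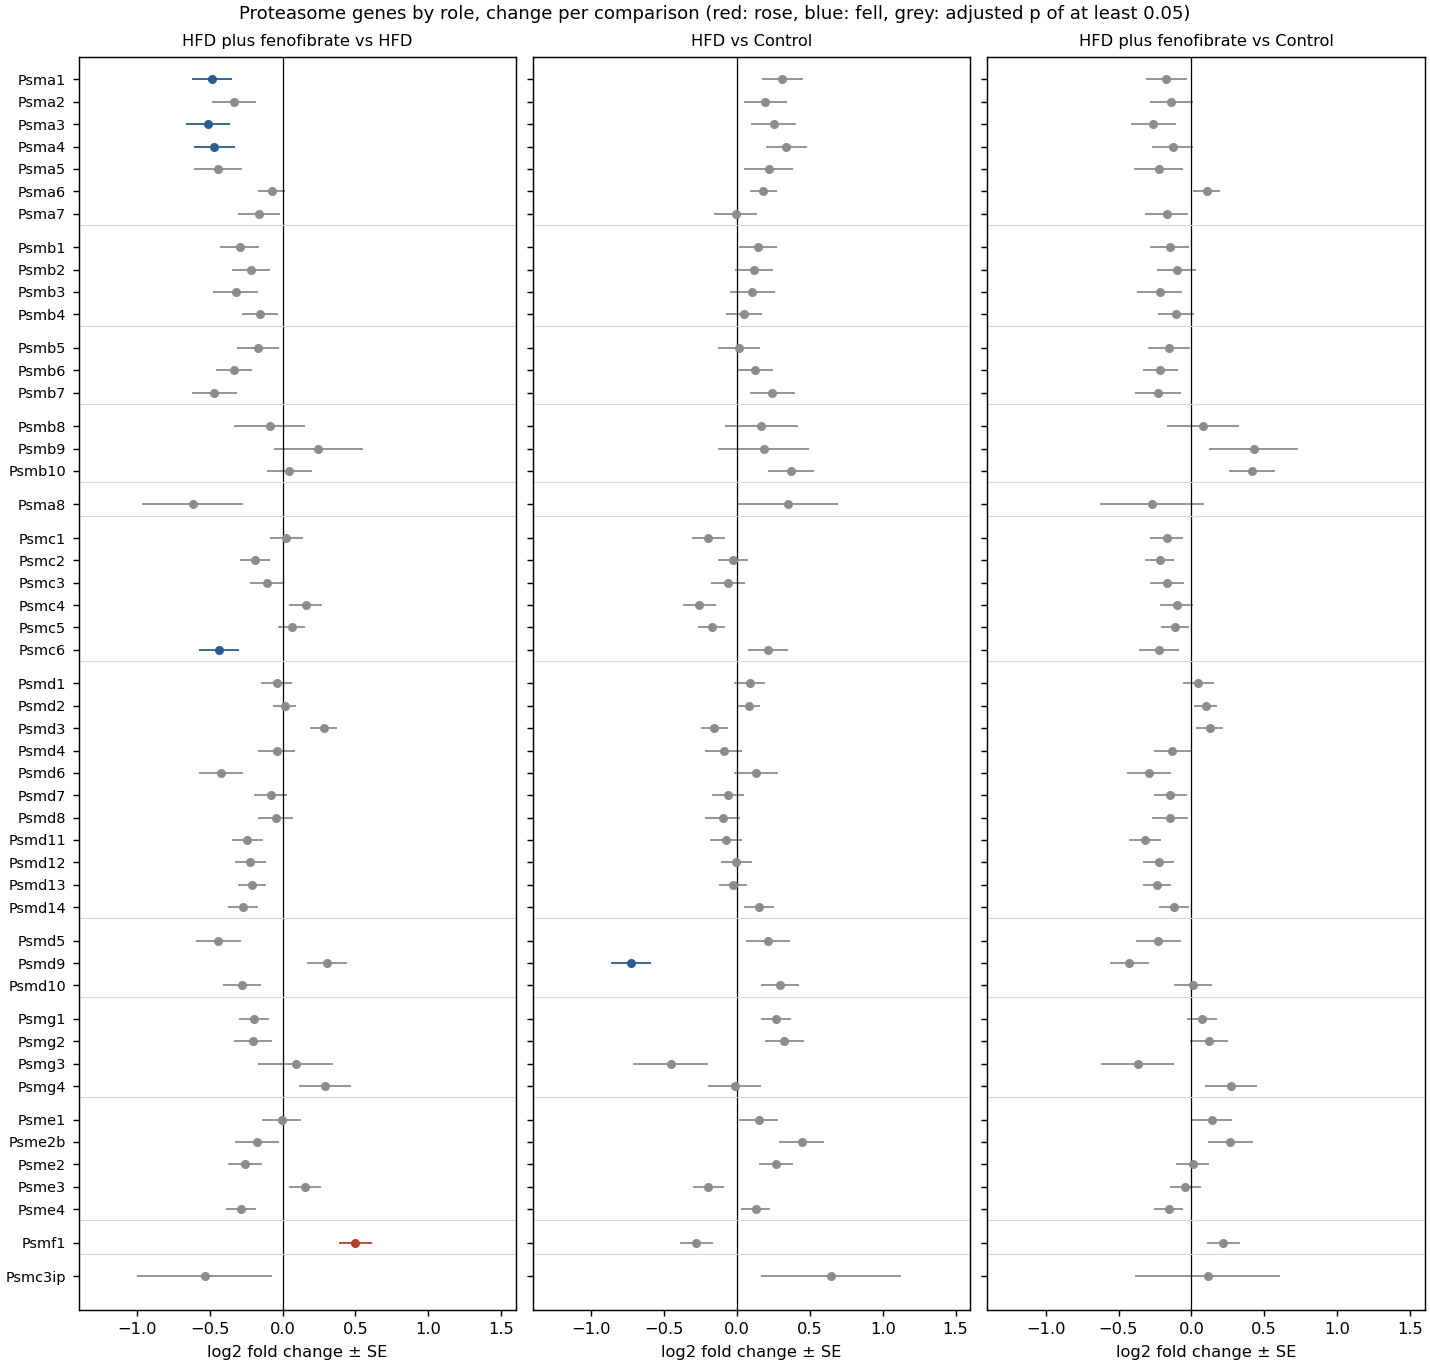
Log2 fold change ± SE (x axis) of each of the 49 members (y axis) in the 3 comparisons, which share groups. From top to bottom the blocks are the alpha ring, structural beta, standard catalytic, immunoproteasome, testis alpha, 19S ATPase, 19S non-ATPase, 19S chaperone, 20S chaperone, activator, inhibitor and Psmc3ip. All 14 standard core genes lie left of 0 with fenofibrate against HFD (10 of 14 with library size alone), and 13 of 14 lie right of 0 with HFD against Control (10 to 14 over the alternatives).

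The promoters of the 4 genes that fell are printed to show which known motifs stand before genes that passed the threshold in the same direction. Each is the 250 bases before the RefSeq start on GRCm38.p6, read 5′ to 3′ along the gene's strand, and capitals mark matches, on either strand, to the motifs defined below. Psma1 lies at chr7:114276117-114276366 on the minus strand, Psma3 at chr12:70974373-70974622, Psma4 at chr9:54950609-54950858 and Psmc6 at chr14:45329574-45329823, the last 3 on the plus strand.
Psma1: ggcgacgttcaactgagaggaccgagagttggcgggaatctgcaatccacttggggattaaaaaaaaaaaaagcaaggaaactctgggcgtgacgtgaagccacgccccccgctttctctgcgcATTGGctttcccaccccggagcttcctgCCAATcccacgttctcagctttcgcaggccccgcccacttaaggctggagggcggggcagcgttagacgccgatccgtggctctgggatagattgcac
Psma3: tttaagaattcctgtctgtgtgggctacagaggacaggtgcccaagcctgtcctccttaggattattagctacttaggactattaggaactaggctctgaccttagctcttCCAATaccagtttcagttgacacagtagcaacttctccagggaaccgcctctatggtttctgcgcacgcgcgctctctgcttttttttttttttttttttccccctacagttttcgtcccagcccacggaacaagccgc
Psma4: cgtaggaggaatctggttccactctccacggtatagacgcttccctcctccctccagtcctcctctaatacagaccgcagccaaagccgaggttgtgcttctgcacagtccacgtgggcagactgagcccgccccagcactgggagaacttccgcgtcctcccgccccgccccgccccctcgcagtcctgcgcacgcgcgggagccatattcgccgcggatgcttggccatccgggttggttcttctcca
Psmc6: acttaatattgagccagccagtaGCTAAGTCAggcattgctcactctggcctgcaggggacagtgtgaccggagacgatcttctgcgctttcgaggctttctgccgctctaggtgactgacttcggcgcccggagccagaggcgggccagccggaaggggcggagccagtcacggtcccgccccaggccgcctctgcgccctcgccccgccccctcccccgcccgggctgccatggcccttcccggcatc
The motifs were the antioxidant response element TGACNNNGC, which NFE2L1 and NFE2L2 bind with small MAF proteins, the CCAAT box CCAAT of NF-Y, the interferon-stimulated response element core GAAANNGAA and the gamma-activated sequence TTCNNNGAA. Psma1 held 2 CCAAT matches and Psma3 held 1. Psmc6 held 1 match to the antioxidant response element, and Psma4 held none of the 4 motifs. The Psma4 window overlaps the start of its listed span (chr9:54950790-54958030), so fewer than 250 bases before that span were searched. Of the 41 members with a promoter in the table, 5 held the antioxidant response element, a share of 12.2%, against 11.5% of 27025 genes. The CCAAT box was in 14 members, a share of 34.1%, against 37.5% of all genes. A match of letters is not a bound site, and the other 8 members had no entry.

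Psma1, an alpha ring gene at chr7:114264606-114276118, had 76.5, 86.4, 69.6 and 75.5 CPM with fenofibrate, against 119, 105, 94.7 and 112 CPM in HFD. The 4 fenofibrate values were all below the 4 HFD values. The means were 77.0 ± 6.99 CPM with fenofibrate and 107.7 ± 10.3 CPM in HFD (SD, n = 4 each), a log2 fold change of -0.48 ± 0.14 with an adjusted p of 0.034. Psma3, at chr12:70974621-70996347, had 59.1, 71.9, 61.7 and 59.2 CPM with fenofibrate, against 106, 85.6, 76.4 and 91.2 CPM in HFD. The groups did not overlap, and the log2 fold change was -0.51 ± 0.15 with an adjusted p of 0.0385.

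Psma4, another alpha ring gene at chr9:54950790-54958030, had 83.2, 106, 82.2 and 78.5 CPM with fenofibrate, against 146, 111, 111 and 117 CPM in HFD. Fenofibrate library 2 was the highest of its group and HFD library 1 the highest of all, and the groups did not overlap. The log2 fold change was -0.47 ± 0.14 with an adjusted p of 0.0403. Psmc6, at chr14:45329824-45349071, had 67.1, 75.3, 60.9 and 62.3 CPM with fenofibrate, against 107, 83.9, 81.9 and 86.3 CPM in HFD. Its groups did not overlap either, and its log2 fold change was -0.43 ± 0.14 with an adjusted p of 0.0489.

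Psmf1 encodes PI31, named for its inhibition of the purified 20S core. The gene, at chr2:151715812-151744186, had 40.4, 39.2, 43.2 and 34.2 CPM with fenofibrate, against 28.3, 27.1, 24.0 and 31.6 CPM in HFD. All fenofibrate values were above all HFD values. The means were 39.2 ± 3.77 CPM with fenofibrate and 27.7 ± 3.13 CPM in HFD (SD, n = 4 each), and the log2 fold change was 0.50 ± 0.11 with an adjusted p of 0.0117.

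**Figure D2:**
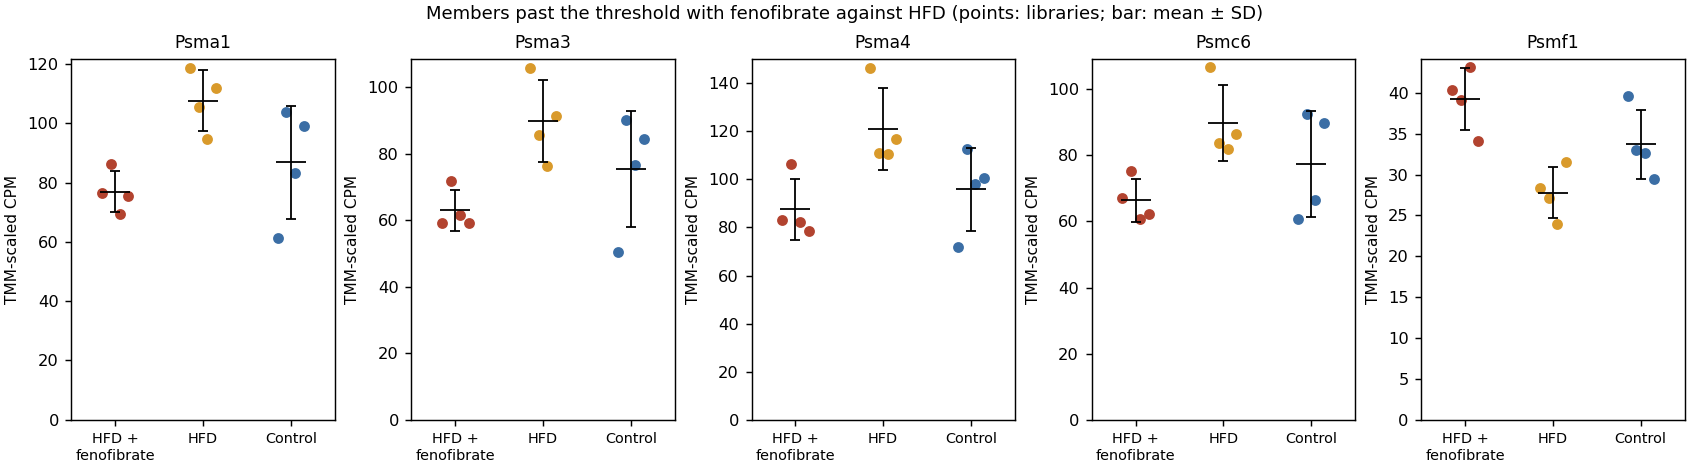
TMM-scaled CPM (y axis) by group (x axis) of the 5 members that passed the threshold with fenofibrate against HFD; points are libraries and the bar is the mean ± SD of 4. For Psma1, Psma3, Psma4 and Psmc6 every fenofibrate point lies below every HFD point, for Psmf1 every one lies above, and Control points span both.

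The calls of the 4 genes that fell depended on single libraries, while Psmf1 passed in 20 of 21 alternatives. With 1 library left out, the log2 fold change ran from -0.54 to -0.43 for Psma1, from -0.58 to -0.42 for Psma3, from -0.57 to -0.36 for Psma4 and from -0.50 to -0.34 for Psmc6. None of the 4 passed without HFD library 1, 2 or 4, or without fenofibrate library 1, 3 or 4, and none passed without fenofibrate libraries 1 and 3 together, when Psmf1 had a log2 fold change of 0.41 and an adjusted p of 0.193. Without fenofibrate library 2, 10 members fell, adding Psma5, Psmb1, Psmb7, Psmd5, Psmd6 and Psmd14, and Psmd3 rose beside Psmf1. Without Control library 1 or 2 the fit found 9 or 7 that fell, and without Control library 4 it found 2. Scaling mattered as well. With library size alone, which moved the median of all genes tested to 0.18 log2, none fell, and Psmc4, Psmd3, Psmd9 and Psmf1 rose. The counts over all genes tested moved too. With 1 library left out 282 to 1210 rose and 328 to 1206 fell, and under the other alternatives 55 to 2059 rose and 69 to 1170 fell.

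By role, the core and the cap differed in their medians. The 14 standard core genes had a median log2 fold change of -0.33 with fenofibrate against HFD, and all 14 were below 0, while with library size alone the median was -0.16 and 10 were below 0. Without fenofibrate libraries 1 and 3 it was -0.21, with 14 below 0. The 17 genes of the 19S particle had a median of -0.08, with 12 below 0 and 5 above, which turned to 0.09 with library size alone and ran from -0.13 without HFD library 2 to -0.02 without HFD library 4. The median of all genes tested was 0.01, and with library size alone 0.18. The difference between core and cap was not tested. Within the core, values ran from -0.07 for Psma6 to -0.51 for Psma3. The 4 structural beta genes ran from -0.16 for Psmb4 to -0.32 for Psmb3, with no adjusted p under 0.144.

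The standard catalytic genes did not pass the threshold in the main edgeR fit of all 12 libraries. With fenofibrate against HFD, Psmb7 fell in 8 of the 21 alternatives and Psmb6 in 3. Over the alternatives the adjusted p ran from 0.0127 to 0.404 for Psmb7 and from 0.0314 to 0.46 for Psmb6. Psmb7, the trypsin-like site, had 41.5, 53.3, 44.2 and 48.5 CPM with fenofibrate, 67.4, 65.5, 56.2 and 70.5 CPM in HFD, and 39.2, 73.7, 47.8 and 59.0 CPM in Control. Psmb6, the caspase-like site, had 74.5, 89.6, 76.4 and 80.9 CPM with fenofibrate, 108, 96.9, 92.1 and 108 CPM in HFD, and 72.5, 113, 87.0 and 99.9 CPM in Control. Fenofibrate and HFD did not overlap for either gene, with log2 fold changes of -0.47 for Psmb7 and -0.34 for Psmb6 and adjusted p-values of 0.057 and 0.0791. Psmb5, the chymotrypsin-like site, had 22.0, 26.2, 23.6 and 20.3 CPM with fenofibrate, 28.5, 22.1, 21.8 and 30.9 CPM in HFD, and 21.6, 32.8, 24.1 and 24.0 CPM in Control. Its groups overlapped, with a log2 fold change of -0.17 and an adjusted p of 0.461. For all 3 genes Control libraries 1 and 2 were the lowest and the highest of their group.

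Within the 19S particle, Psmd3, a lid subunit, had the highest value, 0.28 ± 0.09 with an adjusted p of 0.0557, and its fenofibrate libraries were all above those of HFD. Psmd14, the deubiquitinase of the lid, had -0.27 with an adjusted p of 0.0852, and Psmd6, another lid subunit, had -0.42 with an adjusted p of 0.0727. These calls depended on the method. DESeq2 called Psmd3 higher and Psmd6 lower, with adjusted p-values of 0.0272 and 0.0463, while limma-voom called neither. The scaffold gene Psmd2 had 0.01 with an adjusted p of 0.924. Of all 49 members, 10 were lower with fenofibrate with no overlap between the groups, a larger share than the 10.3% of all genes tested. With no overlap 3 were higher, a smaller share than the 10.4% of all genes tested.

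The 20S core level followed the library within each group. The median log2 level of the 14 core genes relative to the Control mean was -0.20, 0.09, -0.24 and -0.25 in the fenofibrate libraries, 0.29, 0.09, 0.01 and 0.28 in the HFD libraries, and -0.38, 0.30, -0.03 and 0.12 in the Control libraries. Fenofibrate library 2, HFD library 1 and Control library 2 were the highest of their groups. They were also the highest for the median of the 19S particle, at 0.0007, 0.08 and 0.24, so the pattern is not particular to the core. The same 3 libraries had the highest hepatocyte marker sums of their groups, 136130 CPM in fenofibrate library 2, 150908 CPM in HFD library 1 and 164645 CPM in Control library 2. They also had the lowest TMM factors of their groups, 0.99, 0.896 and 0.884. As a share of raw counts, all members together took 0.315%, 0.315%, 0.324% and 0.298% in the fenofibrate libraries and 0.311%, 0.307%, 0.304% and 0.327% in the HFD libraries, and these ranges overlap. Of the 10 hepatocyte markers 3 fell with fenofibrate against HFD, while 6.59% of all genes tested did. The part of hepatocyte content and scaling in the lower core levels was not tested.

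**Figure D3:**
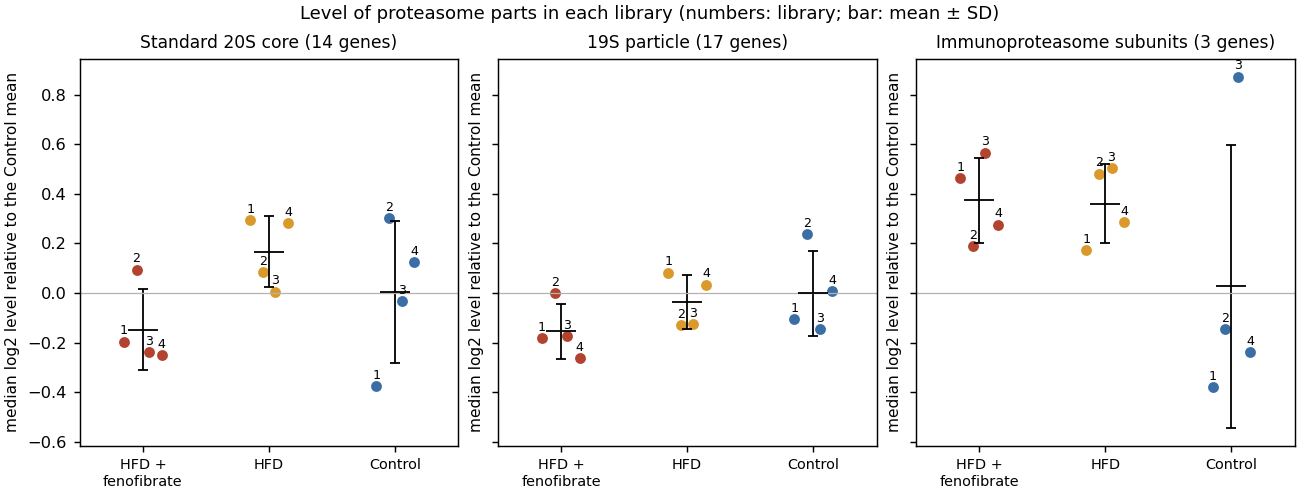
Median log2 level relative to the Control mean (y axis) of the standard 20S core, the 19S particle and the immunoproteasome genes in each library (points, numbered by library) by group (x axis); bars are the mean ± SD of 4 libraries. Fenofibrate library 2 sits above the other 3 of its group in the core panel, and Control library 3 stands far above the other Control libraries in the immunoproteasome panel.

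The second comparison asks what the high-fat diet did in the absence of the drug. It shares the HFD libraries with the first, so the values of each stand side by side and the opposite signs are not separate evidence. Against Control, HFD livers showed 1 changed member, the 19S chaperone gene Psmd9, which fell. None rose, while 6.13% of all genes tested rose, and 1 fell, while 6.64% fell. DESeq2 called 1 member higher, Psme2b, and limma-voom called none higher. Both also called Psmd9 lower. An unadjusted p under 0.05 was found for 11 of the 49 members, while 26.9% of all genes tested had one. The 14 standard core genes had a median log2 fold change of 0.16, from -0.01 for Psma7 to 0.34 for Psma4, whose adjusted p was 0.136. Without Control library 1 this median was 0.07, without HFD library 1 it was 0.10, and without Control library 2 it was 0.25. The 17 genes of the 19S particle had a median of -0.06, which ran from -0.10 to 0.04 over the alternatives, and the median of all genes tested was -0.02.

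Psmd9, whose product escorts ATPase subunits during assembly of the 19S base, had 41.6, 36.8, 35.5 and 44.4 CPM in HFD, against 62.8, 81.3, 58.4 and 60.0 CPM in Control. Every HFD value was below every Control value. The means were 39.6 ± 4.15 CPM in HFD and 65.6 ± 10.6 CPM in Control (SD, n = 4 each). The log2 fold change was -0.73 ± 0.14 with an adjusted p of 0.0026, and it stayed under 0.05 in all 21 alternatives, with adjusted p-values from 3.27e-05 to 0.0111. With fenofibrate the 4 libraries had 46.2, 58.8, 51.7 and 38.8 CPM, against HFD a log2 fold change of 0.30 with an adjusted p of 0.14, and against Control -0.43 with an adjusted p of 0.062.

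The reading of Psmd9 is uncertain for its place in the genome. Its span, chr5:123169413-123250131 on the plus strand, contains Hpd, an abundant liver gene of tyrosine breakdown, on the other strand. Hpd averaged 2427 CPM over the 12 libraries and Psmd9 51.4 CPM. Hpd differed between HFD and Control in the same direction. It had 1711 ± 87.4 CPM in HFD and 2911 ± 121 CPM in Control (SD, n = 4 each), a log2 fold change of -0.77 with an adjusted p of 0.000452, and with fenofibrate against HFD it rose by 0.64 with an adjusted p of 0.00335, or 0.73 and 0.0217 without fenofibrate libraries 1 and 3. Psmd9 was 2.02% to 2.62% of Hpd in HFD and 2.06% to 2.73% in Control, ranges that overlap. It was 1.62% to 2.09% of Hpd with fenofibrate. In the GENCODE M21 annotation the exons of the pair share 0 bases, and the sources used here do not say whether the authors counted by strand. The part of Hpd reads in the counts of Psmd9 was not tested.

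**Figure D4:**
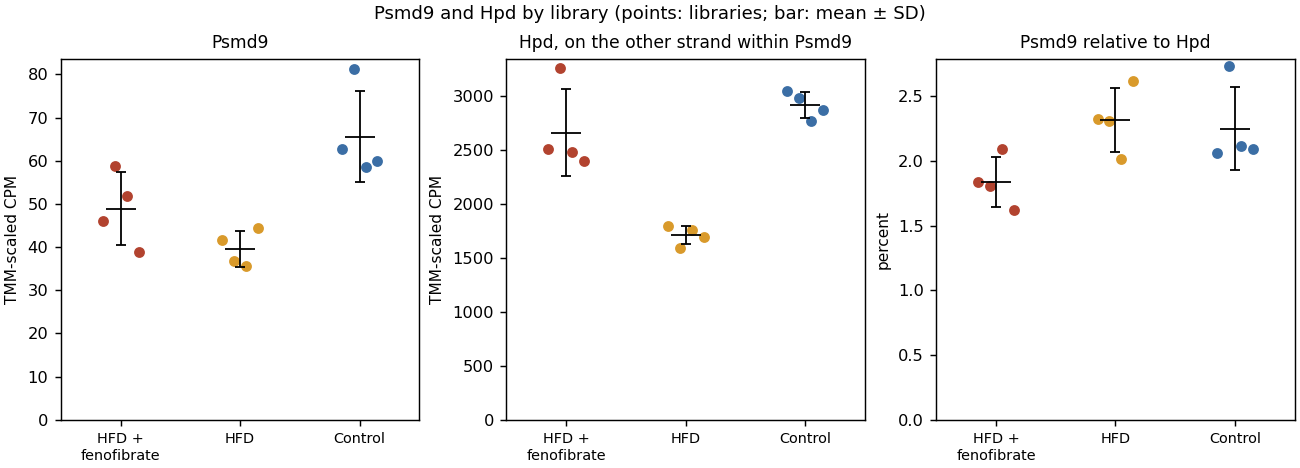
TMM-scaled CPM of Psmd9 (left), of Hpd (middle), and Psmd9 as a percent of Hpd (right) on the y axes, by group on the x axes; points are libraries and bars the mean ± SD of 4. Both genes are lowest in HFD, and the percent in HFD, 2.02 to 2.62, overlaps that in Control, 2.06 to 2.73.

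Of the 4 chaperones of 20S assembly 2 had higher and 2 lower values in HFD, and none passed the threshold. Psmg1 had 19.03, 18.1, 17.3 and 18.7 CPM in HFD, against 13.8, 15.6, 14.4 and 16.9 CPM in Control. Psmg2, its partner in joining alpha subunits, had 15.1, 14.4, 14.7 and 14.6 CPM in HFD, against 8.78, 12.1, 12.2 and 13.9 CPM in Control. The groups did not overlap for either gene, and the adjusted p-values were 0.0982 and 0.124. Psmg3 had a log2 fold change of -0.46 with an adjusted p of 0.276, at 1.93 ± 0.53 CPM in HFD and 2.65 ± 0.14 CPM in Control (SD, n = 4 each), and Psmg4 had -0.02 with an adjusted p of 0.967. Psmd10, a chaperone of the 19S base also known as gankyrin, averaged 12.1 ± 0.90 CPM in HFD and 9.85 ± 1.03 CPM in Control (SD, n = 4 each), with an adjusted p of 0.162. Together with Psme2b, 4 members were higher in HFD with no overlap, while 8.48% of all genes tested were, and 1 was lower with no overlap, while 9.16% were.

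The third comparison sets fenofibrate livers against Control livers and shares libraries with both others. No member rose, while 4.86% of all genes tested rose, and none fell, while 4.31% fell. In the edgeR fit 6 of the 49 members had an unadjusted p under 0.05, while 24.6% of all genes tested did. DESeq2 called 1 member, Psmd9, and limma-voom called none. The 14 standard core genes had a median log2 fold change of -0.16 and the 17 genes of the 19S particle -0.15, against -0.01 for all genes tested. These medians were -0.05 and -0.06 when Control library 2 was left out, and -0.26 and -0.18 when Control library 1 was. Leaving out fenofibrate library 2 gave -0.24 and -0.23, and leaving out libraries 1 and 3 of that group gave -0.08 and -0.10. With library size alone, which moved the median of all genes tested to 0.20, the median of the 31 genes together turned to 0.06, and Psma6, Psmb10, Psmd2, Psme2b and Psmf1 rose. Under the alternatives other than leaving out 1 library, 215 to 2119 of all genes tested rose. Psmd13 and Psmg3 were lower with fenofibrate with no overlap between the groups, a count of 2, while 6.26% of all genes tested were.

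None of the 3 immunoproteasome genes changed in the main edgeR fit of all 12 libraries, and 1, Psmb10, had an unadjusted p under 0.05 for HFD against Control and for fenofibrate against Control. With library size alone Psmb10 rose with fenofibrate against Control, at 0.64 with an adjusted p of 0.0262. Their promoters are printed because interferon acts through elements before these genes. Psmb8 lies at chr17:34197945-34198194 on the plus strand, Psmb9 at chr17:34187331-34187580 on the minus strand and Psmb10 at chr8:105938393-105938642 on the minus strand, with capitals as before.
Psmb8: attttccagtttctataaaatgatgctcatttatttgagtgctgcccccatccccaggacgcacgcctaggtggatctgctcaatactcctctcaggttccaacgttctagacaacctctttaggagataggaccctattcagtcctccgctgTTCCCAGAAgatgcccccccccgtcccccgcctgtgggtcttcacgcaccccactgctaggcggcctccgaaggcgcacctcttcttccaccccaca
Psmb9: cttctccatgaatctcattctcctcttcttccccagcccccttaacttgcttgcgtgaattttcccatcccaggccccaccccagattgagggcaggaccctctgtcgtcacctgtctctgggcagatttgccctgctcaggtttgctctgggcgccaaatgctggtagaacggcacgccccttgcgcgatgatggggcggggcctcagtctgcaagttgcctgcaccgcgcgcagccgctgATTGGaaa
Psmb10: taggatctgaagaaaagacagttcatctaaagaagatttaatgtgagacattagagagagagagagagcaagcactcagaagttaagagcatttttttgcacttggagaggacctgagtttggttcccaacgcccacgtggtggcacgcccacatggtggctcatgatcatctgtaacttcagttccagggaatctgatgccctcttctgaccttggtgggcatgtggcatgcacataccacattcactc
Psmb8 held 1 match to the gamma-activated sequence, whose letters were in 4.88% of members and 8.13% of all genes. Psmb9 held 1 CCAAT match. In these windows none of the 3 held the interferon-stimulated core, which was in 7.32% of members and 8.18% of all genes. By the listed gene spans, the Psmb8 window lies within Psmb8 (chr17:34197721-34201454) and the Psmb9 window within Psmb9 (chr17:34181988-34187764). The Psmb10 window overlaps the start of its gene (chr8:105935735-105938444). Bases before the listed spans of Psmb8 and Psmb9 were not searched, so the lack of a match does not show that interferon elements are absent.

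Psmb8, the counterpart of Psmb5, had 6.37, 5.64, 7.69 and 5.32 CPM with fenofibrate, 6.21, 6.13, 7.79 and 6.51 CPM in HFD, and 3.58, 5.45, 10.1 and 4.67 CPM in Control. Control library 3 was the highest of all 12, and the other 3 Control libraries were below all HFD libraries. Psmb9, the counterpart of Psmb6, had 12.9, 13.2, 16.5 and 10.3 CPM with fenofibrate, 9.58, 13.9, 10.7 and 10.4 CPM in HFD, and 8.0, 5.38, 19.7 and 6.28 CPM in Control. The pattern was the same, with Control library 3 highest and the other Control libraries lowest. Psmb10, the counterpart of Psmb7, had 26.4, 21.8, 28.4 and 28.2 CPM with fenofibrate, 22.1, 26.7, 28.0 and 24.6 CPM in HFD, and 14.7, 17.3, 27.2 and 19.4 CPM in Control. Apart from Control library 3, the Control libraries were below all of the others.

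With all libraries, HFD against Control gave log2 fold changes of 0.17 for Psmb8, 0.18 for Psmb9 and 0.37 for Psmb10, with adjusted p-values of 0.719, 0.761 and 0.144. Control library 3 held the highest Control value of all 3 genes, so leaving it out raises these changes. Without it, Psmb9 rose by 0.76 with an adjusted p of 0.019 and Psmb10 rose by 0.57 with an adjusted p of 0.0137. Psmb8 then had 0.55 with an adjusted p of 0.0732. Over all fits with 1 library left out, HFD against Control ran from -0.02 to 0.76 for Psmb9. It ran from 0.26 to 0.57 for Psmb10 and from -0.004 to 0.55 for Psmb8. Fenofibrate against Control gave 0.43 for Psmb9 and 0.42 for Psmb10, with adjusted p-values of 0.418 and 0.113. Without Control library 3 these were 1.01 and 0.61, with adjusted p-values of 0.00565 and 0.0121. Over all fits with 1 library left out they ran from 0.23 to 1.01 for Psmb9 and from 0.31 to 0.61 for Psmb10. Fenofibrate against HFD gave -0.09 for Psmb8, 0.24 for Psmb9 and 0.05 for Psmb10, and the lowest adjusted p of the 3 was 0.618.

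Control library 3 was also high in several related measures, though not in all. Tap1, which carries peptides into the endoplasmic reticulum, had 41.0 CPM there, against 15.9 to 26.2 CPM in the other Control libraries. Tap2, another antigen presentation gene, had 8.71 CPM there, below Control library 1 at 9.96 CPM. The T and NK cell markers summed to 17.7 CPM there, the 8 B and plasma cell markers to 187 CPM, against 83.9 to 108 CPM in the other Control libraries, and the 5 pan-leukocyte markers to 64.2 CPM, against 42.6 to 50.9 CPM. The 10 macrophage and Kupffer cell markers summed to 516 CPM there, within the 373 to 568 CPM of the other Control libraries. No marker of these lists was at 0 in every library. Of the 12 T and NK cell markers 7 were tested and none changed in the comparisons. The part of leukocyte content in the immunoproteasome levels was not tested. Psmb9 and Tap1 lie on opposite strands and share 212 exon bases, so reads there cannot be told apart without strand. In all, 12 members share exon bases with a gene on the other strand, and for 3 of these a partner is more abundant. Psmb7 shares 405 exon bases with Nek6, which averaged 43.8 CPM against 55.6 CPM for Psmb7. Psmd13 shares 342 with Sirt3, which averaged 71.4 CPM against 54.8 CPM for Psmd13.

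**Figure D5:**
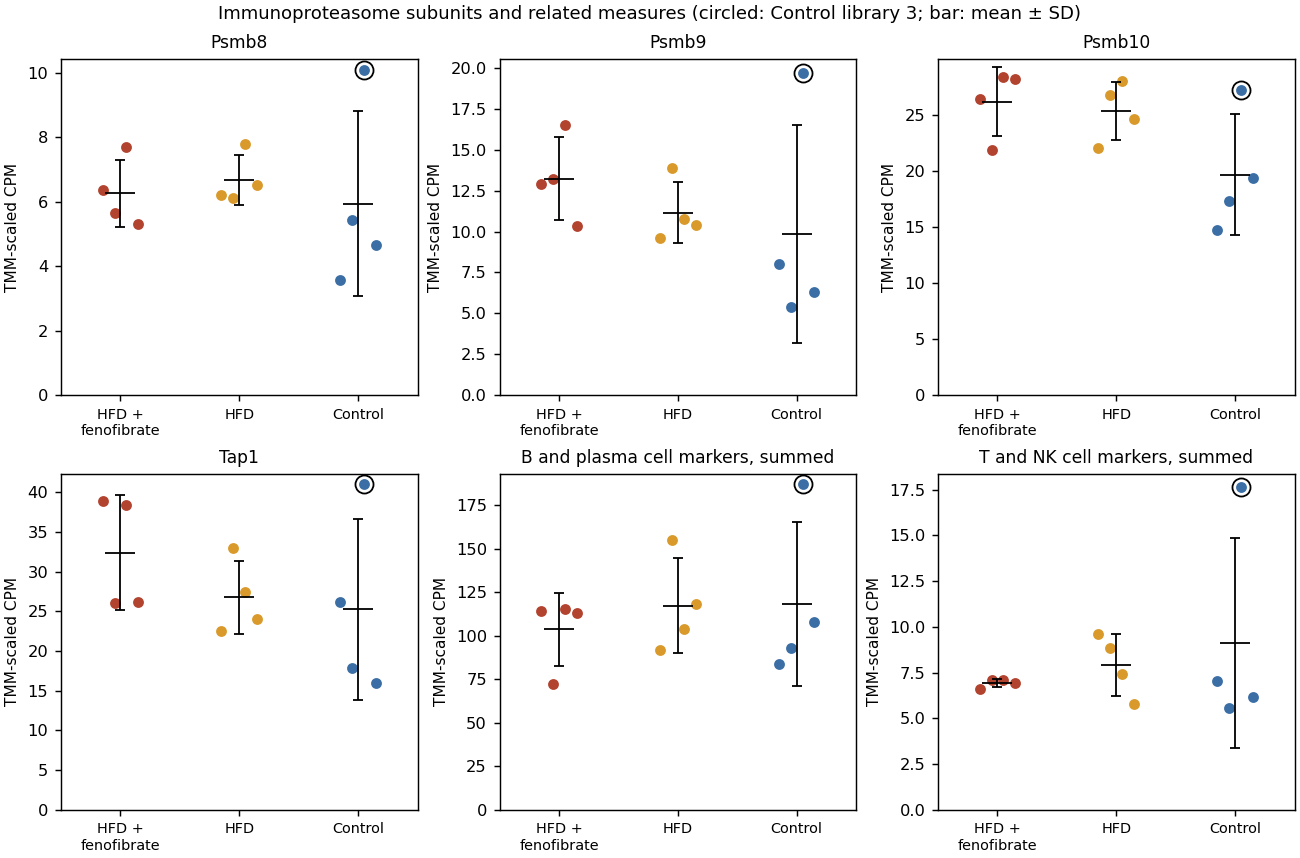
TMM-scaled CPM (y axes) of Psmb8, Psmb9, Psmb10, Tap1, the summed B and plasma cell markers and the summed T and NK cell markers by group (x axes); points are libraries, bars the mean ± SD of 4, and the circle marks Control library 3. The circled library is the highest of the Control group in all 6 panels, at 10.1 CPM for Psmb8, 19.7 for Psmb9 and 17.7 for the T and NK cell sum.

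Each immunoproteasome gene was set against the standard subunit that it replaces, per kilobase of 1 annotated transcript. Psmb8 was 11.9% to 18.0% of Psmb5 with fenofibrate, 11.6% to 19.8% in HFD and 9.16% to 23.1% in Control. Psmb9 was 7.55% to 12.7% of Psmb6 with fenofibrate, 5.23% to 8.46% in HFD, and 2.81% to 13.4% in Control. Psmb10 was 36.3% to 56.7% of Psmb7 with fenofibrate, 29.0% to 44.2% in HFD and 20.8% to 50.5% in Control. The sizes of the Psmb8 and Psmb10 shares depend most on the length used. Per kilobase of all exon bases, an alternative chosen after seeing the data, Psmb10 was 82.2% to 129% of Psmb7 with fenofibrate, 65.7% to 100.2% in HFD and 47.2% to 114% in Control. By that length Psmb8 stayed between 4.41% and 11.1% of Psmb5, and Psmb9 between 2.44% and 11.6% of Psmb6. The ranges of the groups overlapped for each pair, and the differences were not tested.

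Of the 5 activator genes none changed in the main edgeR fit of all 12 libraries, though some alternatives called a change. DESeq2 called Psme4 lower with fenofibrate against HFD, at -0.29 with an adjusted p of 0.0371. It also called Psme2b higher in HFD against Control, at 0.46 with an adjusted p of 0.0478. With only the 8 libraries compared, Psme2 fell with fenofibrate against HFD, at -0.25 with an adjusted p of 0.0396. With library size alone Psme2b rose in HFD and with fenofibrate against Control. Psme1 and Psme2 encode the PA28 ring that opens the core, and interferon raises both. Psme1 had 73.3, 64.6, 70.4 and 58.2 CPM with fenofibrate, 73.3, 62.4, 57.1 and 75.1 CPM in HFD, and 49.3, 63.8, 76.0 and 52.6 CPM in Control, and its groups overlapped. Psme2 had 36.1, 37.2, 38.5 and 34.3 CPM with fenofibrate, 45.6, 42.3, 43.2 and 43.9 CPM in HFD, and 28.3, 36.7, 45.7 and 34.7 CPM in Control. The fenofibrate libraries were all below the HFD libraries, with a log2 fold change of -0.26 and an adjusted p of 0.138. Without Control library 3, Psme2 rose in HFD against Control by 0.40 with an adjusted p of 0.0226, and Psme2b rose by 0.56 with an adjusted p of 0.0336. That library held the highest Control value of both genes. Over all fits with 1 library left out, the change of Psme2 ran from 0.18 to 0.40. Psme2b is a copy of Psme2, and reads of the pair may be divided wrongly. Psme3, a nuclear activator, had a log2 fold change of 0.15 with fenofibrate against HFD and Psme4, the PA200 cap, had -0.29, with adjusted p-values of 0.346 and 0.0683.

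Beyond the members, subunits and assembly factors with other symbols were partly in the same direction. Of 6 such genes tested, 1 fell with fenofibrate against HFD, while 6.59% of all genes tested did. The gene that fell was Pomp, which matures the half-formed core, at 56.8, 69.7, 56.2 and 51.8 CPM with fenofibrate and 89.7, 80.0, 74.9 and 93.7 CPM in HFD. Its log2 fold change was -0.53 ± 0.15 with an adjusted p of 0.0289, and without fenofibrate libraries 1 and 3 it was -0.47 with an adjusted p of 0.263. Sem1, a small subunit of the 19S lid, had -0.47 with an adjusted p of 0.0628. Adrm1, a ubiquitin receptor of the 19S particle, fell in HFD against Control, with 71.3 ± 5.85 CPM in HFD and 95.5 ± 13.6 CPM in Control (SD, n = 4 each), a log2 fold change of -0.42 and an adjusted p of 0.0226. None of the 6 changed with fenofibrate against Control, where Adrm1 had -0.11 and Txnl1, a thioredoxin-like protein bound to the proteasome, had -0.29, with adjusted p-values of 0.599 and 0.203.

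Of 7 genes that control proteasome gene transcription, 1 rose and 1 fell with fenofibrate against HFD, and 1 rose in HFD and in fenofibrate livers against Control. Of all genes tested, 6.89% rose and 6.59% fell with fenofibrate against HFD. Against Control, 6.13% rose in HFD and 4.86% with fenofibrate. Nfe2l1 had 113 ± 17.1 CPM with fenofibrate, 126 ± 3.23 CPM in HFD and 105 ± 5.58 CPM in Control (SD, n = 4 each), and the lowest adjusted p of its comparisons was 0.12. Ngly1, the deglycosylase that NFE2L1 needs for its activation, fell with fenofibrate against HFD by 0.53 on the log2 scale, with an adjusted p of 0.0211. Mafg, a small MAF partner, rose by 0.38 with an adjusted p of 0.034. Without fenofibrate libraries 1 and 3 neither passed, at -0.43 for Ngly1 and 0.38 for Mafg, with adjusted p-values of 0.25 and 0.234. Maff, another partner, was low, at 3.76 ± 0.94 CPM with fenofibrate, 4.69 ± 1.91 CPM in HFD and 1.49 ± 0.44 CPM in Control (SD, n = 4 each). It rose against Control by 1.65 in HFD, with an adjusted p of 0.00247, and by 1.33 with fenofibrate, with an adjusted p of 0.0136, or 1.53 and 0.0365 without fenofibrate libraries 1 and 3.

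Of 20 genes for ubiquitin and its activation, delivery and removal, 1 rose and 2 fell with fenofibrate against HFD. Of all genes tested, 6.89% rose and 6.59% fell. Uchl5, the deubiquitinase that docks on Adrm1, fell by 0.51 on the log2 scale, with an adjusted p of 0.0125. Uba6, a ubiquitin-activating enzyme, fell by 0.51 with an adjusted p of 0.0458, and Ubqln2, a shuttle to the proteasome, rose by 0.54 with an adjusted p of 0.0166. Without fenofibrate libraries 1 and 3 none of these 3 passed, at -0.38 for Uchl5, -0.65 for Uba6 and 0.45 for Ubqln2, with adjusted p-values of 0.216, 0.16 and 0.212. In HFD against Control, 1 of the 20 fell, while 6.64% of all genes tested did. This was Nploc4, a cofactor of the unfoldase VCP, by 0.34 on the log2 scale with an adjusted p of 0.0322. The 20 genes had median log2 fold changes of 0.02 with fenofibrate against HFD and -0.04 in HFD against Control. None of the 20 changed with fenofibrate against Control, where the polyubiquitin gene Ubb had a log2 fold change of -0.24 with an adjusted p of 0.174.

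Of 17 genes for antigen presentation and its control, 2 fell with fenofibrate against HFD, 1 fell with fenofibrate against Control and none changed in HFD against Control. Of all genes tested, 6.59% fell with fenofibrate against HFD and 4.31% against Control. B2m, the light chain of MHC class I, had 1531, 1838, 1343 and 1534 CPM with fenofibrate, 2732, 2228, 2256 and 2460 CPM in HFD, and 1736, 2387, 2952 and 2292 CPM in Control. Its log2 fold change was -0.63 ± 0.15 against HFD and -0.58 ± 0.15 against Control, with adjusted p-values of 0.0141 and 0.022. Jak2, a kinase of the interferon gamma receptor, fell by 0.41 on the log2 scale against HFD with an adjusted p of 0.029. Without fenofibrate libraries 1 and 3 neither gene passed, at -0.52 and -0.46 for B2m against HFD and Control and -0.46 for Jak2 against HFD, with adjusted p-values of 0.199, 0.235 and 0.143. Tap1 had 32.4 ± 7.24 CPM with fenofibrate and 26.7 ± 4.64 CPM in HFD (SD, n = 4 each), with an adjusted p of 0.462.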

How the data were processed

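The deposited values are raw gene counts, per the file headers, in 2 tables of 8 libraries that share the HFD libraries. HISAT2 2.0.5, StringTie 1.3.2d and HTSeq 0.6.0 are named in the submitters' processing notes; the sources used here give no settings, strand included. The tables were joined by gene identifier, with missing genes at 0. Positions match GRCm38 (92.5% of 25113 identifiers shared with GENCODE M21), not the listed mm8 and mm9. edgeR 4.0.16 in R 4.3.3 was used with filterByExpr, TMM and 1 coefficient per group, on all 12 libraries, after the steps were tested on simulated data. SE is the fold change divided by the square root of F. Alternatives used DESeq2 1.42.0, limma-voom (limma 3.58.1), other filters and scaling, fewer libraries and a replicate block. The members and lists were chosen with earlier results of these data known. Values in every library are given for members past the threshold and for a fixed set of catalytic and activator genes; of each list up to 4 genes that passed are named, or the 2 most abundant, save for genes not reported here. Promoters are from RefSeq. Lists and motifs were described, not tested.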

Additional observations from a re-analysis of the deposited data

Results flagged for a closer look

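Of 204 groups of 4 libraries examined, 12 had 1 library far from the other 3, and chance alone does this in about 1 group in 20. Fenofibrate library 2 stood apart in the median log2 level of the standard 20S core, at 0.0941 against -0.25 to -0.20 in the others, in Psma4, at 106 CPM against 78.5 to 83.2 CPM, in Hpd, at 3256 CPM against 2391 to 2510 CPM, and in summed B and plasma cell markers, at 72.1 CPM against 113 to 115 CPM. Fenofibrate library 1 stood apart in pancreatic acinar markers, at 1843 CPM against 7.79 to 14.0 CPM.

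HFD library 1 stood apart in Psma4, at 146 CPM against 111 to 117 CPM, and in sinusoidal endothelium markers, at 140 CPM against 243 to 261 CPM. HFD library 3 was low in Psmd13, at 53.6 CPM against 57.6 to 58.3 CPM. Control library 2 was high in Psmc4, at 114 CPM against 84.6 to 89.4 CPM, and in Psmd9 as a percent of Hpd, at 2.73% against 2.06% to 2.11%. Control library 3 stood apart in T and NK cell markers, at 17.7 CPM against 5.58 to 7.05 CPM and in Psmb8 as a percent of Psmb5 per kilobase, at 23.1% against 9.16% to 10.7%.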

How the results depend on the processing

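The counts of members that rose and fell were recomputed under 21 alternatives. In HFD against Control, 1 member fell under each of them. The count that rose was 2 with library size alone and 1 with DESeq2, and 0 to 4 with 1 library left out. Among all genes tested, 550 to 832 rose and 554 to 930 fell with 1 library left out. Under the other alternatives, 691 to 994 of all genes rose and 523 to 967 fell. With fenofibrate against HFD, 2 rose with a mean of at least 1 CPM, 4 with library size alone and 2 with DESeq2, and 1 to 2 with 1 library left out. The count that fell there was 0 with library size alone, 9 with DESeq2 and 10 with only the 8 libraries compared, and 0 to 10 with 1 library left out. Without fenofibrate libraries 1 and 3, 0 rose and 0 fell. Among all genes tested, 282 to 1210 rose and 328 to 1206 fell with 1 library left out. Under the other alternatives, 55 to 2059 of all genes rose and 69 to 1170 fell. With fenofibrate against Control, 5 rose with library size alone and 0 to 2 with 1 library left out, and 1 fell with no low-count filter, 1 with DESeq2 and 0 to 1 with 1 library left out. Among all genes tested, 383 to 858 rose and 310 to 852 fell with 1 library left out. Under the other alternatives, 215 to 2119 of all genes rose and 158 to 701 fell.

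Replicate numbers are not said to pair libraries. The deviations from group means of libraries with the same number correlated at r between -0.25 and 0.21. Libraries with different numbers were not compared, so these values do not settle whether any were paired. With the replicate block, 1 member rose and 4 fell with fenofibrate against HFD (Psma1, Psma3, Psmb7 and Psmd5), 0 rose and 1 fell in HFD against Control, and 0 rose and 0 fell with fenofibrate against Control. The cause of each shift was not tested. Psma8 and Psmc3ip, at low counts, had the widest SE of the members in each comparison, so small changes in them were not detectable at this depth.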
